A study of Mus musculus with 6 samples.

Results

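MiR-124, miR-124*, miR-9 and miR-9* are the guide and star strands of a pair of microRNA (miRNA) hairpins that are widely used as marks of neurons. They were selected by name, as all array spots whose probe name holds mmu-miR-124, mmu-miR-124*, mmu-miR-9 or mmu-miR-9*. This gave 4 probes with 4 spots each, 16 of the 2388 spots that belong to the 597 probes naming a mouse miRNA. The study compared miRNA in mouse retinal cells with and without experimental autoimmune uveoretinitis (EAU), in which T cells that recognise retinal antigen inflame the retina. One group was 3 samples of naive B10.RⅢ mice aged 8 weeks, and the other was 3 samples of B10.RⅢ mice of the same age on day 14 of developing EAU. Harvests were independent, per the labels, which give neither the number of mice in a sample nor the way EAU was induced. The p-values cover only the spread between these samples, in which harvest, labelling and array cannot be told apart. From each sample 800 ng of total RNA carried the dye Hy3 and was hybridised to a miRCURY LNA array of capture probes, together with a Hy5-labelled reference blended from equal amounts of the samples.

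A miRNA is cut from a hairpin precursor as a duplex. The guide strand is loaded into an Argonaute protein and pairs with messenger RNAs through its seed, the bases near its 5′ end, while the star strand is mostly degraded. MiR-124 is strongly enriched in differentiated neurons, including those of the retina, where it represses many transcripts that are not neuronal. MiR-9 is known for its part in neural progenitors and in neurogenesis, and its star strand has targets of its own, among them the corepressor CoREST.

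The sequences of the miR-9 hairpin show that the 2 arms, each with a probe of its own, differ in sequence and share no seed. The sequences are taken from RefSeq (GRCm38.p6), with bases 2 to 8, the seed, in capitals.
miR-9: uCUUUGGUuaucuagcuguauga
miR-9*: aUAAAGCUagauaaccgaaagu
Both strands are made from each of 3 genes, so the probes cannot tell which gene a molecule came from. Mir9-1 lies at chr3:88215598-88215686, Mir9-2 at chr13:83738814-83738885 and Mir9-3 at chr7:79505264-79505353, all on the plus strand. The 3 hairpins are shown with the mature arms in capitals. The arms are identical in the 3 genes, while the loops of 16, 14 and 16 bases between them and the flanks differ.
Mir9-1: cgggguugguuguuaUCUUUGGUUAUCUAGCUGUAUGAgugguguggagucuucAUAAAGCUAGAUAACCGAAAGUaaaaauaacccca
Mir9-2: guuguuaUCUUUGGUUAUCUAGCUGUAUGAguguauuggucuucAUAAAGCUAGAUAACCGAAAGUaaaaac
Mir9-3: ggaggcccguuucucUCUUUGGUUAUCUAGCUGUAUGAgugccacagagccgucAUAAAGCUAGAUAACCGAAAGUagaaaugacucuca
MiR-124 and miR-124* likewise have 3 mouse genes, Mir124a-1, Mir124a-2 and Mir124a-3.

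Retinal identity was checked with the miR-183, miR-96 and miR-182 cluster of photoreceptors, whose 3 probes lay above the blank level on all 6 arrays. The blank level of an array is the median of its 144 blank and negative-control spots plus 3 median absolute deviations, and a probe counted as above it when at least 50% of its spots were. Markers of other cell types were summed per array and counted in the test of the sample channel described further on, in which limma called 10.6% of the 595 probes in either direction. The summed sample signal of the photoreceptor cluster, with local background subtracted, was 2726 to 3064 in naive and 418 to 1091 in EAU, and 3 of 3 fell there (1 of 3 in the ratio). The pigment epithelium miRNAs miR-204 and miR-211 had sums of 1256 to 1604 and 242 to 1224, and 2 of 2 fell. For the 6 leukocyte miRNAs (miR-142-3p, miR-142-5p, miR-223, miR-155, miR-150 and miR-146a) it was 333 to 415 in naive and 575 to 1340 in EAU, and miR-142-3p and miR-142-5p exceeded the blank level on each EAU array and on none of the naive ones. These were the 2 of 6 that rose in the sample channel, and in the ratio 1 of 6 rose. The 4 striated muscle miRNAs (miR-1, miR-133a, miR-133b and miR-206) were above the blanks on all 6 arrays, with overlapping sums of 227 to 511 and 199 to 527, and 0 of 4 passed, as did 0 of 2 endothelial miRNAs (limma). The part of these cells in the results was not tested, and in bulk samples fewer cells of a type and less RNA per cell cannot be told apart. All naive arrays share a scan day and all EAU arrays share another, so that a scan effect and a group effect cannot be told apart. The Hy3 dye marked the sample on every array, with no dye swap.

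MiR-124 was dimmer in every EAU sample than in every naive sample. Its raw sample signal, the mean over 4 spots in scanner units, was 49475, 49024 and 43721 in naive replicates 1 to 3 and 17040, 16775 and 5850 in EAU replicates 1 to 3. The groups were far apart, with means of 47407 ± 3200 and 13222 ± 6385 (SD, n = 3 each), a 3.59-fold difference. EAU replicate 3 was the lowest, and its median sample signal over all mouse miRNA spots was the lowest too. With 3 arrays against 3 the exact permutation test (two-sided) gave p = 0.1, the smallest it allows. The naive spots reached near the scanner's ceiling of about 65288: 48 pixels in them were saturated, though no spot was marked as saturated, and the value of a saturated pixel is a lower bound.

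The reference at the same probe, which is one pooled RNA on every array, was also dimmer on the EAU arrays. Its raw signal was 4149, 6641 and 3573 on the naive arrays and 1498, 3565 and 517 on the EAU arrays. The groups did not overlap, but naive replicate 3 and EAU replicate 2 differed by less than 10 units, and the means were 4788 ± 1631 and 1860 ± 1556 (SD, n = 3 each). After local background was subtracted, the reference was 8.33%, 13.5% and 8.11% of the sample signal on the naive arrays and 8.63%, 21.1% and 8.36% on the EAU arrays. At this probe the reference thus stood at a like share of the sample signal on 4 of the 6 arrays, in both groups.

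The star strand miR-124*, from the other arm of the hairpin, was dimmer in EAU too. Its raw sample signal was 183.3, 181.95 and 154.6 in naive and 94.7, 102 and 62.7 in EAU, over a local background of 22 to 24. The groups did not overlap, and the means of 173 ± 16.2 and 86.3 ± 20.7 (SD, n = 3 each) differed 2.01-fold (exact permutation test, two-sided, p = 0.1). It was above the blanks on 3 of 3 naive arrays but on only EAU replicate 1 of the 3 EAU arrays, so its EAU level is close to the limit of the measurement. The reference signal overlapped between the groups, at 45.5, 52.8 and 40.7 on the naive and 37.95, 46.5 and 35.5 on the EAU arrays.

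MiR-9 and miR-9* showed no such separation before normalization. The raw sample signal of miR-9 was 369, 350 and 244 in naive and 229, 393 and 119 in EAU. EAU replicate 2 was the highest of the 6 and EAU replicate 3 the lowest, and miR-9 was above the blanks on all of them. These arrays were also the brightest and the dimmest as a whole. Over all mouse miRNA spots the median sample signal was 76.1, 80.3 and 61.4 on the naive and 71.9, 115 and 58.8 on the EAU arrays. On naive replicate 2 copy 1 of its spots, at 570, stood beside a local background of 225. Its reference signal was 58.3, 80.9 and 44.8 on the naive and 43.8, 62.6 and 38.6 on the EAU arrays, with overlap. MiR-9* had a sample signal of 98.2, 101 and 80.9 in naive and 74.1, 116 and 59.9 in EAU. Its highest and lowest values were likewise those of EAU replicates 2 and 3, and it was above the blanks on 3 naive arrays and on EAU replicates 1 and 2. Its reference signal, at 38.5, 42.0 and 35.7 on the naive and 33.6, 38.7 and 33.8 on the EAU arrays, was close to the local background of 29 to 31. MiR-124 and miR-124* were thus the members whose raw sample signal was lower in EAU without overlap, a pattern found in 12 of the 597 mouse probes (2.01%). In the raw reference signal it was found in 0.335% of the probes, namely miR-124 and miR-1959.

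**Figure D1:**
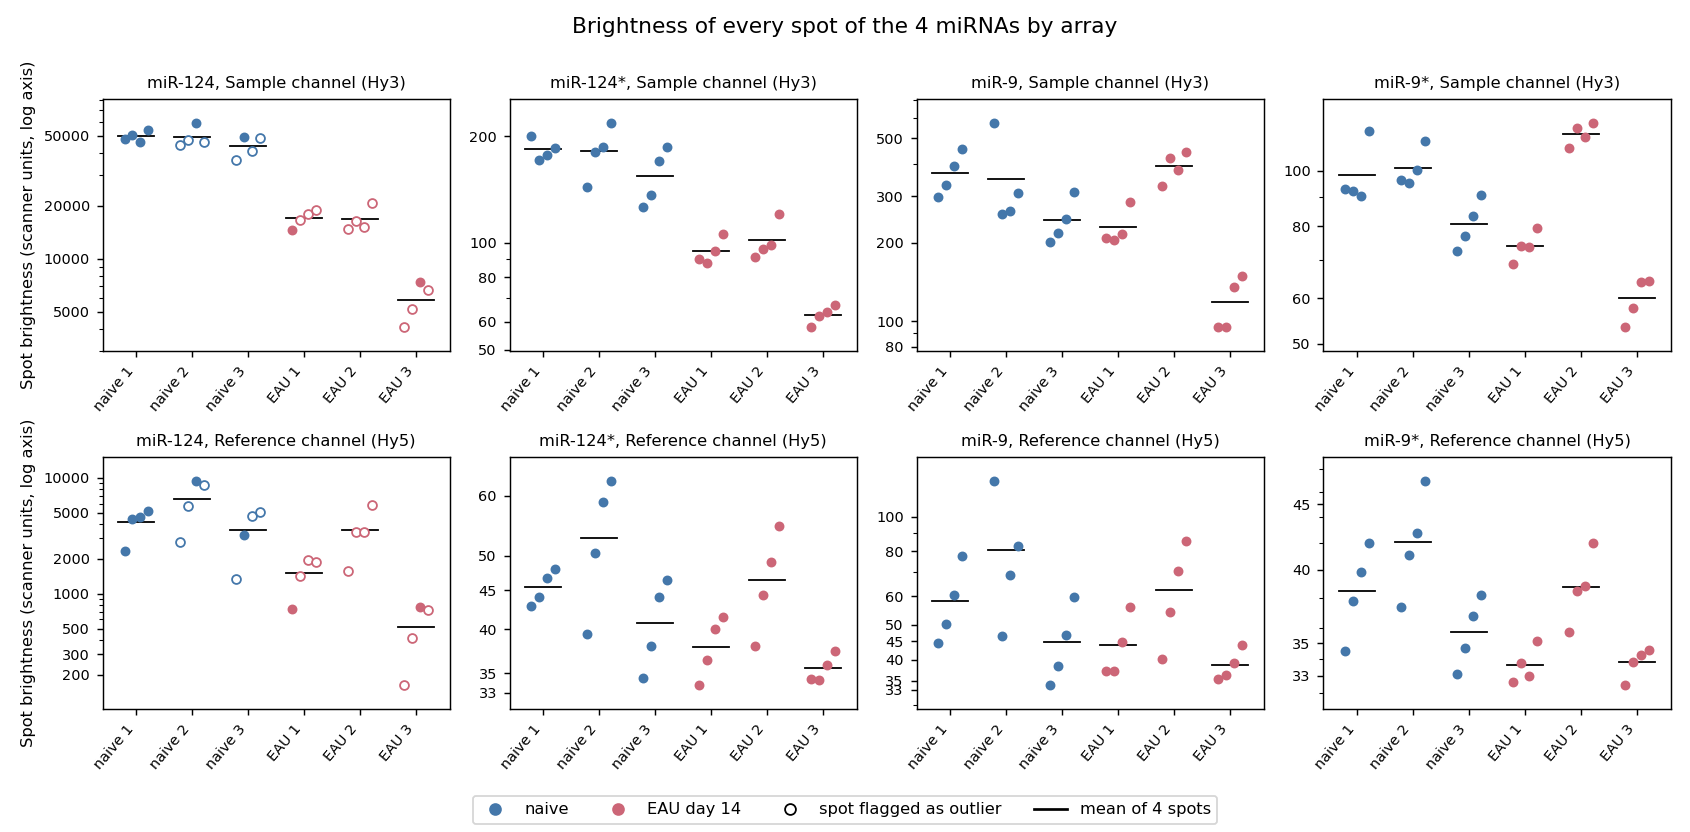
Raw signal of each of the 4 spots of each member on each array, on a log axis, in the sample and the reference channel, with spots marked as outliers (flagged in the key) as open circles, a bar for the mean of the 4 spots and a scale of its own in each panel. MiR-124 is lower on the 3 EAU arrays in the sample channel, where its spots lie between 4111 and 20689 against 36408 to 58644 on the naive arrays.

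Many miR-124 spots were marked as outliers by the scanner software, and none of the other members' spots were. Of its 24 spots 16 were marked, 6 on naive and 10 on EAU arrays, or 66.7% against 1.0% to 3.81% of all mouse miRNA spots per array. The mark was for uneven brightness within the spot, set in the sample channel for 15 spots and in the reference channel for 15. It fell on 0, 3 and 3 spots of naive replicates 1 to 3 and on 3, 4 and 3 spots of EAU replicates 1 to 3. Without the marked spots miR-124 therefore rests on 1 spot on 4 arrays and has no value on EAU replicate 2.

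Leaving out the marked spots, and with them EAU replicate 2, widened the gap between the group means of the raw signal. In the ratio tested further on the gap narrowed. The sample signal of miR-124 was then 49475, 58644 and 49359 in naive and 14636 and 7426 in EAU replicates 1 and 3, a 4.76-fold difference of means. The reference signal was 4149, 9405 and 3224 on the naive arrays and 733 and 770 on those EAU arrays. For miR-124*, miR-9 and miR-9* the values with and without marked spots are the same.

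For the test of the ratio, each array's values were corrected for background and normalized by loess, which removes the trend of the log2 ratio with brightness, and the difference is EAU minus naive in log2(Hy3/Hy5). Of the 4 members 2 fell: miR-9 and miR-124*. Lower calls were made for 8.74% of the 595 mouse probes tested by limma with Benjamini-Hochberg adjustment (52 probes, and 25 higher). That share depends on the setting: with no normalization 4 probes were called lower and 21 higher, with the scanner's processed signals 15 and 26, and without EAU replicate 3 the 77 calls in all became 8 (without naive replicates 1, 2 and 3 they became 9, 15 and 36).

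MiR-9 had log2 ratios of 0.55, 0.45 and 0.48 in naive and 0.25, 0.08 and 0.10 in EAU. All 3 EAU values lay below the naive ones, and the difference was -0.35 (SE 0.06; 1.27-fold lower; limma, adjusted p = 0.0211). A lack of overlap in this direction was seen in 29.6% of the tested probes. The call was lost without any one of naive replicates 1 to 3 or EAU replicate 3 (differences of -0.32, -0.37, -0.36 and -0.33; limma, adjusted p = 0.0854, 0.0663, 0.0573 and 0.0736). With no normalization within arrays the difference was -0.21 (adjusted p = 0.995).

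MiR-124* had log2 ratios of 0.27, 0.32 and 0.28 in naive and -0.05, -0.31 and 0.01 in EAU. The naive values were within 0.05 of each other and all above the EAU values, and the difference was -0.41 (SE 0.09; 1.33-fold lower; limma, adjusted p = 0.0403). Leaving out any single array except EAU replicate 2 ended the call (without naive replicates 1 to 3, EAU replicate 1 and EAU replicate 3: limma, adjusted p = 0.118, 0.130, 0.0891, 0.0546 and 0.0678, with differences of -0.42, -0.40, -0.41, -0.44 and -0.47). The difference was larger, without the call, when no constant was added in the background correction (-1.04; adjusted p = 0.0677).

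MiR-124 itself did not pass. Without marked spots its log2 ratios were 0.06, -0.21 and -0.43 in naive and 0.18 and -1.95 in EAU replicates 1 and 3, so the EAU arrays held both the highest and the lowest value. The difference was -0.69 (SE 0.67; 95% interval -2.48 to 1.11; limma, adjusted p = 0.520). It was 0.38 without EAU replicate 3 (adjusted p = 0.314) and -1.75 without EAU replicate 1 (adjusted p = 0.0297), each with a single EAU array assumed to vary like the other groups. With marked spots kept, the ratios were 0.06, 0.23 and -0.57 in naive and -0.73, -1.73 and -1.21 in EAU. The groups then did not overlap, as for 29.8% of 597 probes in that direction, but the difference of -1.13 (SE 0.32; limma, adjusted p = 0.0707) did not pass either.

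MiR-9* had log2 ratios of 0.05, 0.13 and 0.06 in naive and 0.04, 0.04 and 0.03 in EAU. All lay near 0, and the difference of -0.04 (SE 0.03; 95% interval -0.11 to 0.02; limma, adjusted p = 0.266) did not pass. The EAU values lay just below the naive ones, a lack of overlap seen in 29.6% of the tested probes in that direction.

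**Figure D2:**
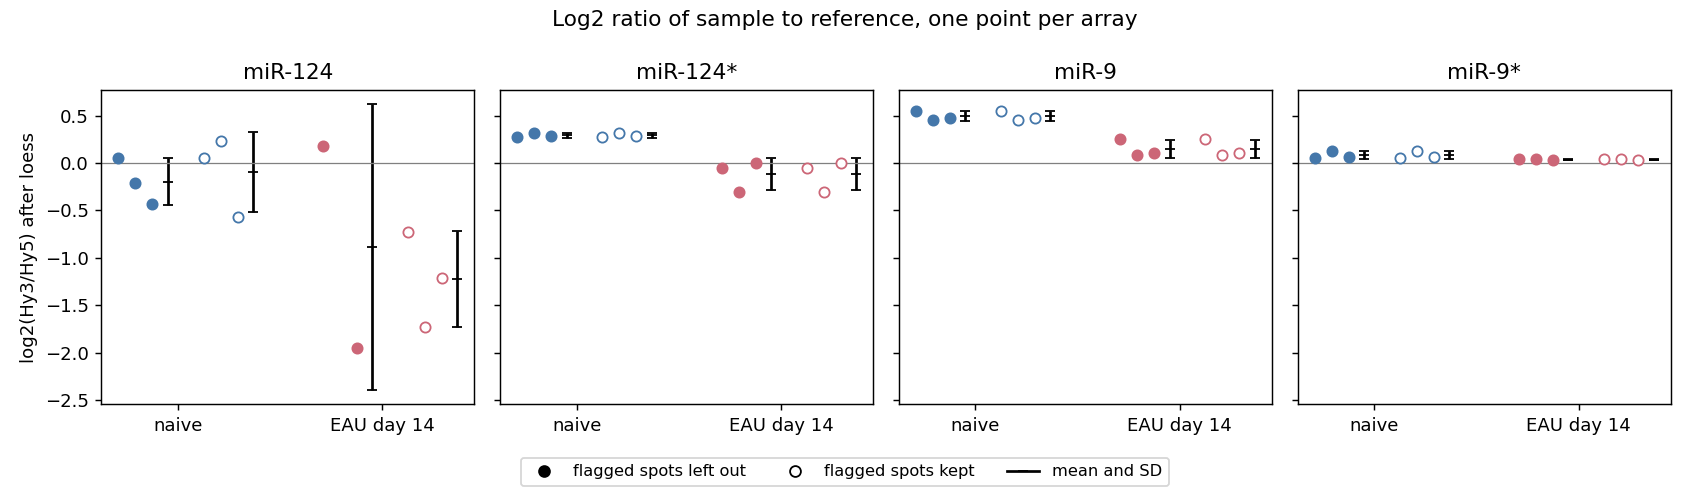
Log2 ratio of sample to reference after loess for each member, 1 point per array, by group, with marked spots left out (filled) and kept (open) and bars for mean and SD. The naive and EAU points are apart for miR-124* and miR-9, near 0 and only just apart for miR-9*, and for miR-124 separate only when marked spots are kept.

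Normalization moved the ratio of miR-124 by several log2 units. Before any normalization its log2 ratio with marked spots kept was 3.63, 3.02 and 3.76 in naive and 3.58, 2.36 and 3.62 in EAU, a difference of -0.28 with overlap (exact permutation test, two-sided, p = 0.5). Loess subtracted 3.57, 2.79 and 4.33 from it on the naive arrays and 4.31, 4.09 and 4.83 on the EAU arrays, against a median of 0.53 to 0.94 over all spots. Few other spots were as bright as miR-124: between 18 and 48 of 7860 non-control spots per array lay within 1 log2 unit of its mean brightness over both channels. What this means for the loess curve at that brightness was not tested.

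Each channel was then tested separately, as log2 signals after loess and a scaling of the arrays to a common overall distribution. Loess corrects the ratio of both channels and splits its correction evenly between them, so these signals are not independent of the other channel. Without marked spots the naive mean of miR-124 was then 13.59 in the sample and 13.79 in the reference, although its raw reference signal was far dimmer. In the sample channel 3 of the 4 members fell, where 5.71% of the 595 probes were called lower by limma with Benjamini-Hochberg adjustment. MiR-124 differed by -2.07 (SE 0.29; limma, adjusted p = 0.0213; 4.21-fold) without marked spots, over 3 naive and 2 EAU arrays, and by -1.93 (SE 0.34; adjusted p = 0.0257; 3.81-fold) with them, where 5.86% of 597 probes were called lower. Its call without marked spots ended when naive replicate 1, naive replicate 3 or EAU replicate 3 was left out (-2.16, -2.19 and -1.77; limma, adjusted p = 0.0784, 0.0738 and 0.0584). With them it ended when any naive array or EAU replicate 2 was left out (-1.95, -1.79, -2.05 and -2.04; limma, adjusted p = 0.0903, 0.0717, 0.0743 and 0.0773).

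MiR-124* fell by 0.73 in the sample channel (SE 0.10; limma, adjusted p = 0.0153), and did not pass without naive replicate 1 (-0.71; adjusted p = 0.0649) or naive replicate 3 (-0.69; adjusted p = 0.0619). MiR-9* fell by 0.19 (SE 0.04; limma, adjusted p = 0.0293), and this call was lost in 10 of 12 other settings, including without any one array other than naive replicate 2 (-0.19, -0.18, -0.21, -0.20 and -0.17 without naive replicates 1 and 3 and EAU replicates 1, 2 and 3; adjusted p = 0.1003, 0.111, 0.0603, 0.0895 and 0.0584). MiR-9 differed by -0.48 (SE 0.12; 95% interval -0.78 to -0.19; limma, adjusted p = 0.0597) and did not pass. The ratio and the sample channel thus made different calls for miR-9, miR-9* and miR-124, and both called miR-124*.

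In the reference channel 0 of the 595 probes were called by limma (44 had an unadjusted p under 0.05), or 0%. The differences of the members there were all below 0. They were -1.38 for miR-124 without marked spots (SE 0.54; adjusted p = 0.584) and -0.80 with them (SE 0.38; adjusted p = 0.607), -0.32 for miR-124* (adjusted p = 0.351), -0.13 for miR-9 (adjusted p = 0.761) and -0.15 for miR-9* (adjusted p = 0.569). With no normalization the reference of miR-124 differed by -2.69 without marked spots and by -1.72 with them (limma, adjusted p = 0.852 and 0.856).

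**Figure D3:**
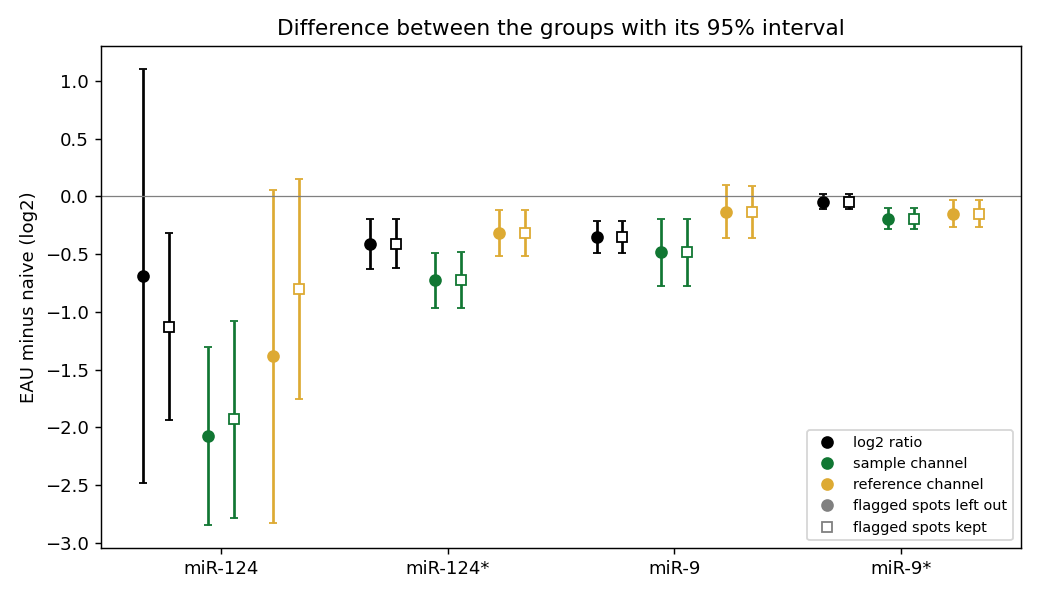
EAU minus naive on the log2 scale with its 95% interval for each member, in the ratio, the sample channel and the reference channel, with marked spots left out (filled) and kept (open). The sample-channel interval of miR-124 lies wholly below 0 at -2.07 and -1.93, while its ratio interval without marked spots runs from -2.48 to 1.11.

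The 4 copies of each spot, numbered by their position along the slide, did not give the same reference signal. At miR-124 the reference of copy 4 was 2.24 to 5.13 times that of copy 1 on the 6 arrays, after background subtraction, while the sample signal was 1.03 to 1.63 times. The median over mouse probes above the blanks was 1.31 to 2.76 in the reference, so a gradient was present beyond miR-124. At miR-9 it was 1.16 to 7.22. The gradient at miR-124 was steeper than the median on every array, and on EAU replicate 3 it was 5.13 against 1.31. It bears on miR-124 because the unmarked spots were not the same copies on each array: copy 3 on naive replicate 2, copy 2 on naive replicate 3, copy 1 on EAU replicate 1 and copy 3 on EAU replicate 3.

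Compared copy by copy with marked spots included, miR-124 gave more even differences. The ratio after loess differed by -1.04, -1.18, -1.11 and -1.18 in copies 1 to 4, and the groups overlapped in copies 3 and 4. The background-subtracted sample signal differed by -2.15, -2.12, -1.92 and -1.84 on the log2 scale. The reference signal at the same copies differed by -1.95, -1.81, -1.79 and -1.64, nearly as much, with overlap in copies 1, 2 and 4. The background-subtracted sample signal of miR-124* differed by -1.27, -1.31, -1.38 and -1.29, more than the -0.73 after normalization and the added offset. For miR-124* the ratio differed by -0.40, -0.38, -0.41 and -0.45, and for miR-9 by -0.28, -0.41, -0.35 and -0.35. MiR-9* ranged from -0.08 to 0.01. These copies share an array and are not replicates.

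**Figure D4:**
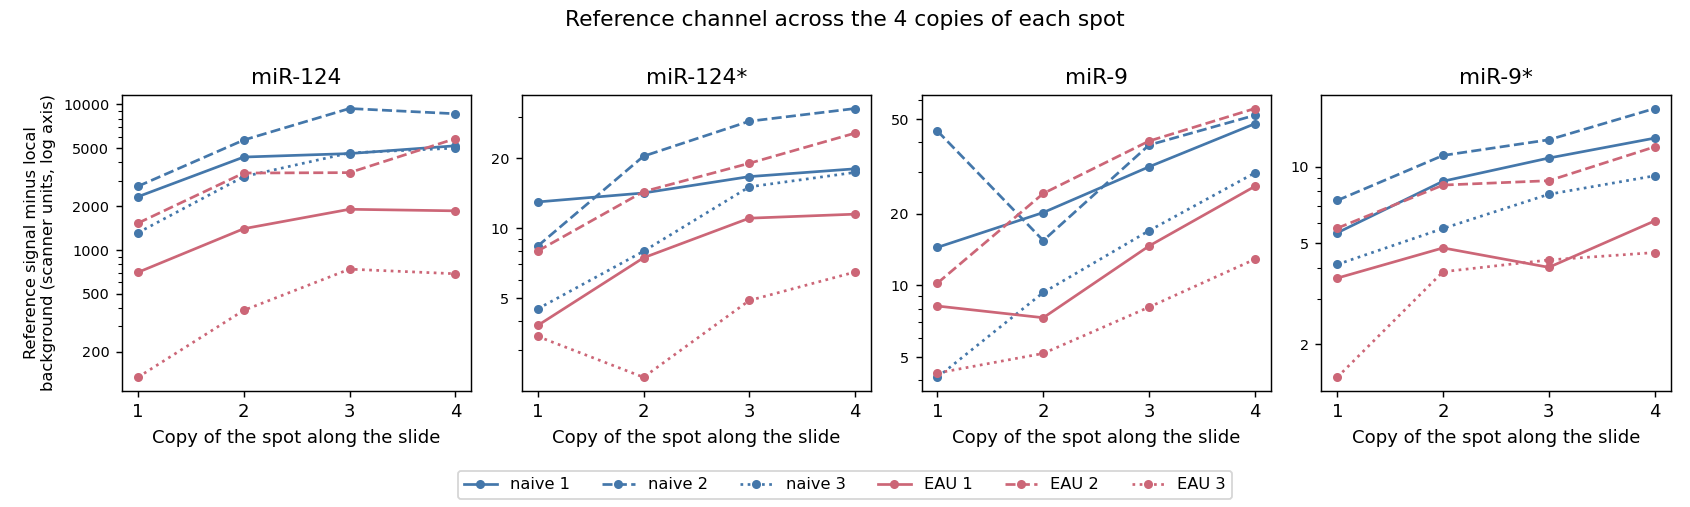
Reference signal minus local background of each member over the 4 copies of its spot, on a log axis, 1 line per array. For miR-124 the reference of copy 4 is 2.24 to 5.13 times that of copy 1.

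Guide and star of a hairpin were also set against each other within each array, in the sample channel, so that only the change of their log2 difference between the groups is read. The log2 difference of guide and star changed by -1.43 without marked spots (3 naive and 2 EAU arrays) and by -1.20 with them (exact permutation test, two-sided, p = 0.1 in each, the smallest the design allows). For miR-9 and miR-9* the change was -0.29 (exact permutation test, p = 0.1), and -0.23 without normalization (p = 0.5). With 3 arrays a group neither can pass a threshold of 0.05. The sizes are limited at both ends: miR-124* was not above the blanks on EAU replicates 2 and 3, miR-9* was not on EAU replicate 3, and the naive miR-124 spots held the saturated pixels. They also depend on the offset added in the background correction. Without it the sample channel differed by -2.25 for miR-124 and -1.62 for miR-124*, against -2.07 and -0.73 with it. For miR-9 and miR-9* it differed by -0.71 and -0.56, against -0.48 and -0.19. The EAU minus naive differences of guide and star, not their levels, thus lay closer together without the offset.

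In the authors' deposited table of ratios, whose normalization is not given in the sources used here, miR-124 stood at 1.64, 1.81 and 1.39 in naive and 1.02, 0.620 and 1.10 in EAU. The groups did not overlap, as for 16.5% of the table's tested mouse probes in that direction, and its log2 difference of -0.86 passed (limma, adjusted p = 0.0198; 6.8% were called lower). In the same deposited table miR-124* stood at 1.45, 1.62 and 1.74 against 1.22, 0.792 and 0.980, a difference of -0.70 that passed too (limma, adjusted p = 0.0274), and miR-9 at 1.46, 1.01 and 2.16 against 1.24, 1.22 and 0.997. MiR-9* stood there at 1.59, 1.57 and 1.41 against 1.53, 1.25 and 1.56. MiR-9 and miR-9* overlapped between the groups there.

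**Figure D5:**
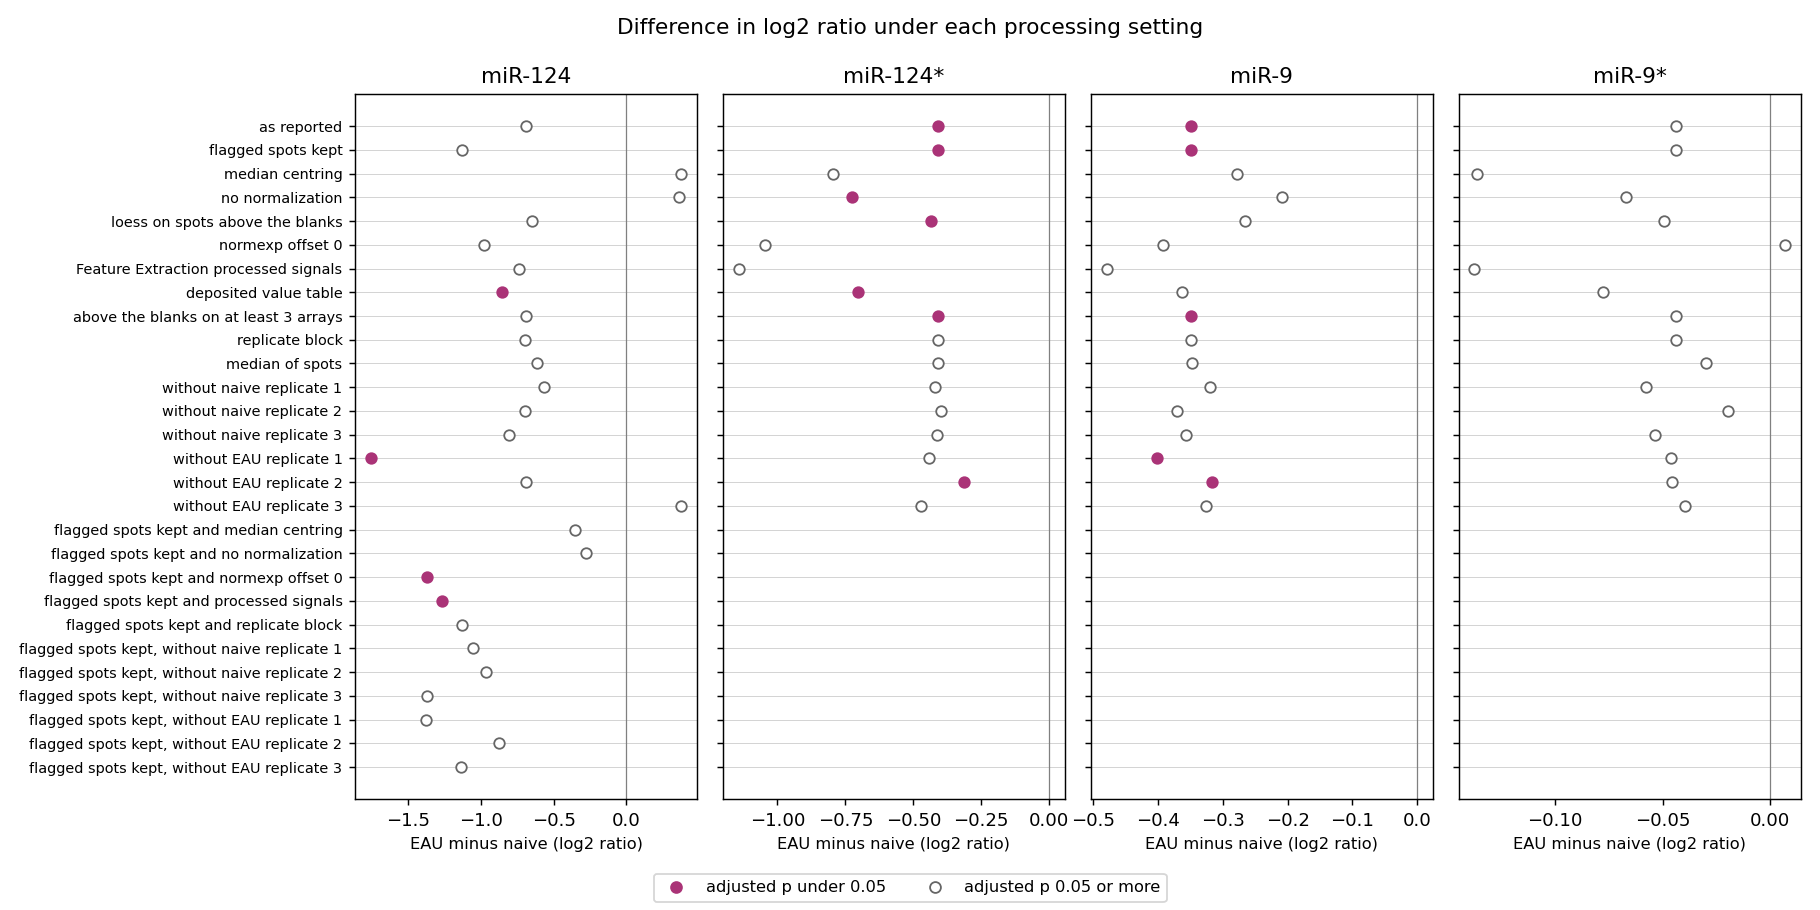
EAU minus naive in the log2 ratio for each member under each processing setting, with a scale of its own in each panel, filled where the adjusted p was under 0.05. MiR-124 ranges from -1.75 to 0.38, miR-124* stays between -1.14 and -0.31, miR-9 between -0.48 and -0.21, and miR-9* between -0.14 and 0.01.

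Other miRNAs enriched in neurons were listed beside the members. Of 18 tested, 4 fell in the ratio, 14 did not pass and none rose: miR-135a, miR-128, miR-129-3p and miR-326, by -0.19, -0.17, -0.38 and -0.17 (limma, adjusted p = 0.0149, 0.0291, 0.0462 and 0.0477), where 8.74% of all 595 probes were called lower. MiR-128 was above the blanks on only 1 naive and 1 EAU array. Their median difference was -0.05, against -0.01 over all probes tested. In the sample channel 0 of the 18 passed (limma), with a median of -0.04, but at the 5.71% of all probes called lower there a list of this size would hold few calls. Their summed sample signal was 1087 to 1533 in naive and 1030 to 2281 in EAU, so the groups overlapped. On all 6 arrays 7 of the 18 exceeded the blank level, and 7 did so on none. The count of 4 dropped to 0 when naive replicate 1, naive replicate 2 or EAU replicate 3 was left out, and to 1 when it was naive replicate 3 or EAU replicate 2.

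The probes whose ratio followed each member most closely over the 6 arrays were found by the root mean square difference of centred log2 ratios, among mouse probes above the blanks on all arrays. For miR-124* they were miR-191 (0.08), miR-29c (0.09) and miR-742 (0.10), against a median of 0.25 over 192 probes. For miR-9 they were miR-145 (0.06), miR-143 (0.06) and miR-210 (0.06), against a median of 0.22 over 191 probes, and for miR-9* miR-677 (0.02), miR-744 (0.02) and miR-149 (0.03), against 0.15. MiR-124 lacks a value on 1 array and was not compared in this way. Values are shared by library and array, and the likeness is a description.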

How the data were processed

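The authors deposited 1 scanner file per array with the intensity of each spot in both channels and of the background around it. The program was Agilent Feature Extraction, whose version the file headers give as 9.1.3.1 and the submitters' processing notes do not give. The authors also deposited a table of 1 linear ratio per probe. Against the scanner files it follows the linear ratio of Hy3 to Hy5 (191 probes; median correlation across arrays 0.952 and correlation across probes 0.644 to 0.881 per array), its column medians ran from 0.769 to 0.886, and its normalization and centring are unknown. In it 36 of 1972 rows above 32 on every array were left out.

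Mean spot signals were corrected for median background by normexp (offset 50), normalized within arrays by loess with control spots at weight 0, averaged over spots on the log2 scale, and for single channels scaled by Aquantile, in limma 3.58.1 under R 4.3.3. Spots marked as outliers in either channel were left out, or kept where stated. EAU was compared with naive by lmFit and eBayes over all mouse probes, two-sided, with Benjamini-Hochberg adjustment and a threshold of 0.05. The fit was run on simulated probe values with planted changes and a value on every array. That simulation did not cover the normalization, marked spots or differences as small as those of miR-9 and miR-124* in the ratio. The number of arrays limits the precision. Probe names are those of the array design.

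The members and lists were chosen with earlier results of these data known. Named beside the members are the 3 probes most like each in its ratios, and up to 4 called miRNAs of a list enriched in neurons. Photoreceptor, pigment epithelium, leukocyte, endothelial and striated muscle lists served as markers. Alternatives were the background correction, the normalization, the blank filter, the summary of spots, the deposited table, the replicate block and each array left out. Combinations with marked spots kept were added for miR-124 after seeing the data. The deviations of same-numbered samples had correlations of 0.19, -0.15 and 0.29 over 592 probes, against -0.44 to 0.30 for differently numbered ones. The numbers were therefore not taken as pairs, except in the setting with the replicate block. In both groups, however, the median sample signal was highest on replicate 2 and lowest on replicate 3, and whether same-numbered arrays were handled together was not tested.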

Additional observations from a re-analysis of the deposited data

How the results depend on the processing

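In the log2 ratio miR-124 turned to 0.38 with median centring and 0.36 with no normalization. It passed at -0.86 in the deposited table and, with marked spots kept (added after seeing the data), at -1.37 without the background offset and -1.27 with the scanner's processed signals. Leaving out 1 array gave -1.75 to 0.38. MiR-124* lost its call at -0.79 with median centring, -1.04 without the offset, -1.14 with processed signals, -0.41 with the replicate block and -0.41 with the median of spots (range without 1 array -0.47 to -0.31). MiR-9 lost its call at -0.28 with median centring, -0.21 with no normalization, -0.27 with loess on spots above the blanks, -0.39 without the offset, -0.48 with processed signals, -0.36 in the deposited table, and -0.35 with the replicate block or the median of spots (range without 1 array -0.40 to -0.32). MiR-9* turned to 0.0069 without the offset.

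In the sample channel with no normalization the calls were lost for miR-124 (-2.32, and -2.005 with marked spots kept), miR-124* (-0.89) and miR-9* (-0.18). With the replicate block they were lost for miR-124 (-1.87, and -1.93 with marked spots kept) and miR-9* (-0.19). MiR-9* also lost its call with quantile normalization (-0.27), processed signals (-0.37) and no offset (-0.56). Leaving out 1 array gave -2.38 to -1.77 for miR-124 (-2.18 to -1.57 with marked spots kept, and there -1.95, -1.79, -2.05 and -2.04 without the call when naive replicates 1 to 3 and EAU replicate 2 were left out), -0.81 to -0.64 for miR-124* and -0.21 to -0.17 for miR-9*.

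Mouse probes called fell from 77 to 2 with median centring or the replicate block, 25 with no normalization (21 higher, 4 lower), 33 with loess on spots above the blanks (18 higher), 26 without the offset (16 higher), 41 with processed signals (26 higher) and 47 with the median of spots (21 higher). The deposited table called 82 (42 higher). Leaving out 1 array gave 8 to 79. Called miRNAs of the neuron list numbered 0 with median centring, no normalization, loess on spots above the blanks, no offset or the block, 2 with processed signals or the blank filter, 1 with the median of spots, and 0 to 3 without 1 array. The cause of these changes was not tested. The calls of miR-9 in the sample channel and of the members in the reference channel changed in none of the settings run. The guide and star differences cannot pass in any setting.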

Other observations

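A separate probe named for human miR-9* alone, outside the 4 members, had raw sample signals of 203, 200 and 168 in naive and 178, 376 and 81.5 in EAU. Its log2 ratios were 0.23, 0.33 and 0.23 in naive and 0.20, 0.34 and 0.07 in EAU. The groups overlapped on both measures, with EAU replicate 2 highest and EAU replicate 3 lowest. The median sample signal over all mouse miRNA spots was also highest and lowest on those arrays.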
